A study of Mus musculus with 14 samples.

Results

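Cell cycle and mitosis genes were followed in the blood leukocytes of 14 mice, 1 array per mouse. They were 40 genes listed by symbol, 11 for DNA replication, 2 for the step from G1 to S phase and 27 for mitosis, out of 20022 genes with a symbol on the array. A gene was found through the RefSeq identifier of its probe, and all 40 had at least 1 probe. Of these, 27 genes gave a signal well above background on at least 6 of the 14 arrays and were tested, among 11497 tested genes in all.

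A dividing cell first copies its DNA and then separates the copies. In S phase the Mcm proteins form the helicase that opens the double helix, Pcna is the ring that holds the polymerase on the template, and Rrm1, Rrm2, Tyms and Tk1 supply deoxynucleotides. In mitosis cyclin B with Cdk1 and the kinases Plk1, Aurka and Aurkb drive entry and spindle assembly, and Cdc20 and Ube2c act with the anaphase-promoting complex to degrade the cyclins. Most mature blood leukocytes do not divide, while activated lymphocytes and immature cells of the myeloid and red lineages do.

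SS stands for exposure to an adverse, hostile social setting in the third postnatal week, and SI for social isolation of juveniles. There were 4 SS and 4 SI mice labelled male, and 4 SS and 2 SI mice labelled female. Each of the 14 was conditioned to a place with under-threshold cocaine (5 mg/kg), then went through extinction and withdrawal, and was bled 24 hours later. Strain and age were not given, and there was no unstressed and no cocaine-free group. The labels call the cells PBMC, but name red cell lysis only and no gradient or sort, and the question was how SS differed from SI in cocaine abstinence.

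All labelled males lay on 1 slide and all labelled females on another, so slide and sex label cannot be told apart. Within each slide SI and SS mice also lay in separate columns of arrays. The Y-linked genes Ddx3y and Eif2s3y were detected on 6 of 6 arrays labelled female and 0 of 8 of the others, which goes against the labels; the labels are kept as names here. Between 34.8% and 47.7% of spots per array were well above background. The SI labelled male 4 array was the dimmest, at -1.06 on the log2 scale against the mean array. Pairs of SI labelled male arrays correlated at 0.833 to 0.972. Leukocyte Ptprc was detected on every array, and so were all 8 platelet markers and 5 of the 9 neutrophil precursor markers. In such mixed RNA, fewer cells of a type and less RNA per cell cannot be told apart.

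CCAAT was present in like shares of the mitotic and the replication promoters, and the shares with TTTGAA and with E2F letters differed, with no test made of either. The promoters were read from RefSeq (GRCm38.p6), from 250 bases before to 50 bases after the start, for 34 of the 40 genes. For Mcm7, Prc1 and Ncapd3, which have 2 entries, the first was counted. TTTGAA is in the second entry of Ncapd3 but not in the counted first, and the second of Mcm7 has no E2F match. CCAAT, the box bound by NF-Y, was searched on both strands and was present in 19 of 23 mitotic (82.6%) and 8 of 10 replication promoters (80.0%), against 37.4% of 32851 promoters. The letters TTTGAA, the core of the cell cycle homology region, were found in 17 of 23 mitotic (73.9%) and 1 of 10 replication promoters (10.0%), against 17.9% of all. E2F sites, searched as TTTCCCGC, TTTGGCGC, TTTGCCGC or TTTCGCGC on both strands, were found in 2 of 23 mitotic (8.7%) and 4 of 10 replication promoters (40.0%), against 2.26% of all. Matches can overlap, as TTTGAA and CCAAT do by a base in Cdca8. These shares describe letters and are not evidence of binding.

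The promoters below are of 2 mitotic genes that passed between SS and SI (Kif23 and Cdca8), 2 that varied most widely between mice or mark dividing cells (Ube2c and Mki67) and 2 replication genes with E2F matches (Mcm3 and Mcm6). Capitals mark matches to these motifs on either strand. Kif23 lies at chr9:61946750-61947049 (minus strand), Cdca8 at chr4:124936868-124937167 (minus), Ube2c at chr2:164769679-164769978 (plus), Mki67 at chr7:135716330-135716629 (minus), Mcm3 at chr1:20820263-20820562 (minus) and Mcm6 at chr1:128359656-128359955 (minus).
Kif23: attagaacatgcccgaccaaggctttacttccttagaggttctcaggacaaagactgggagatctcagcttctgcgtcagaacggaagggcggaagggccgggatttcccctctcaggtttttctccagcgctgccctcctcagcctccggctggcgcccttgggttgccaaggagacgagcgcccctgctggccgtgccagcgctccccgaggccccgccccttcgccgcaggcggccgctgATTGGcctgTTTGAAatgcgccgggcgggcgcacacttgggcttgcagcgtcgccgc
Cdca8: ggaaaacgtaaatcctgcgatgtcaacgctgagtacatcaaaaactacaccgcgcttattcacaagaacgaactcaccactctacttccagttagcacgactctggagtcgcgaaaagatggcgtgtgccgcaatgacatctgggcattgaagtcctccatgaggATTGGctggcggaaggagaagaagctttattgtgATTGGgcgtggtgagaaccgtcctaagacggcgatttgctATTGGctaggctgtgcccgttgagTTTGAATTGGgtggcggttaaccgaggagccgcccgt
Ube2c: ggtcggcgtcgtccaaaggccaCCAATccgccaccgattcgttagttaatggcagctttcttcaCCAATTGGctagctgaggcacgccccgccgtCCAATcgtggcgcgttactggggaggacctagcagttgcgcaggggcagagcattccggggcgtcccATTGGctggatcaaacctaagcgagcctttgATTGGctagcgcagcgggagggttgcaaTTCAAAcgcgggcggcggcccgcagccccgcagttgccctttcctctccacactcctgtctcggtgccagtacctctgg
Mki67: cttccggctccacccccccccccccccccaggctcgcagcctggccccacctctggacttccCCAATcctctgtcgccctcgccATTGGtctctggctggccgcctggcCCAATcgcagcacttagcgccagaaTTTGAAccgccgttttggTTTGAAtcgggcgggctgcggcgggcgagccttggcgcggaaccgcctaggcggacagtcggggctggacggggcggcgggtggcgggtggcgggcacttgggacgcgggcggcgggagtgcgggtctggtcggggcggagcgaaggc
Mcm3: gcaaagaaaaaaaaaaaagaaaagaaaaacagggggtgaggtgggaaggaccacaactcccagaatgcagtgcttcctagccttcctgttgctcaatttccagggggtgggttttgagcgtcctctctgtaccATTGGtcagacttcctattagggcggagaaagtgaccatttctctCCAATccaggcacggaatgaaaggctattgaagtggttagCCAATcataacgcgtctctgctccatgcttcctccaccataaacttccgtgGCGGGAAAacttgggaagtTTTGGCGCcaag
Mcm6: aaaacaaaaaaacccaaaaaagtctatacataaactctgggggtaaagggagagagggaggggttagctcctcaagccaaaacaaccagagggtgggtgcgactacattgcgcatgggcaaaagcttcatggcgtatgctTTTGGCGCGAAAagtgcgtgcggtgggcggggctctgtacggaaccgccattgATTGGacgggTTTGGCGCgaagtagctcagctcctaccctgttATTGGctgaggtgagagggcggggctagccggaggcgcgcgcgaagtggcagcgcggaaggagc
Each of the 4 mitotic promoters shown holds at least 1 CCAAT match upstream of a TTTGAA match, with 6 CCAAT matches in Ube2c and 4 in Cdca8. Ncapd3, which also passed between SS and SI, is not shown and has no CCAAT match in either entry. Nusap1 and Birc5 have neither CCAAT nor TTTGAA. Mcm3 and Mcm6 hold 2 and 3 E2F matches and no TTTGAA.

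Detection differed between the lists. All 11 replication genes were tested, against 1 of 2 G1/S cyclins (Ccne1) and 15 of 27 mitotic genes. The mitotic share was near that of all genes with a symbol on the array, of which 11497 of 20022 were tested. The 12 mitotic genes that were not tested were Top2a, Cdk1, Aurka, Aurkb, Bub1, Bub1b, Kif11, Kif20a, Kif2c, Cenpf, Tpx2 and Ncapg, with Ccne2 as the other gene left out. Of these 13, 8 were well above background on 0 of 14 arrays. Aurka and Kif20a were so on 3 arrays each, and Top2a, the topoisomerase that untangles sister chromatids, Cdk1 and Tpx2 on 1 each. The 1 array was SI labelled female 27 for Top2a (log2 level -4.46), SI labelled male 5 for Cdk1 (-3.46) and SI labelled female 28 for Tpx2 (-4.14). A level here is the log2 processed signal minus the 75th percentile, on the same array, of probes detected on all 14 arrays, and levels are compared only within a gene.

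**Figure D1:**
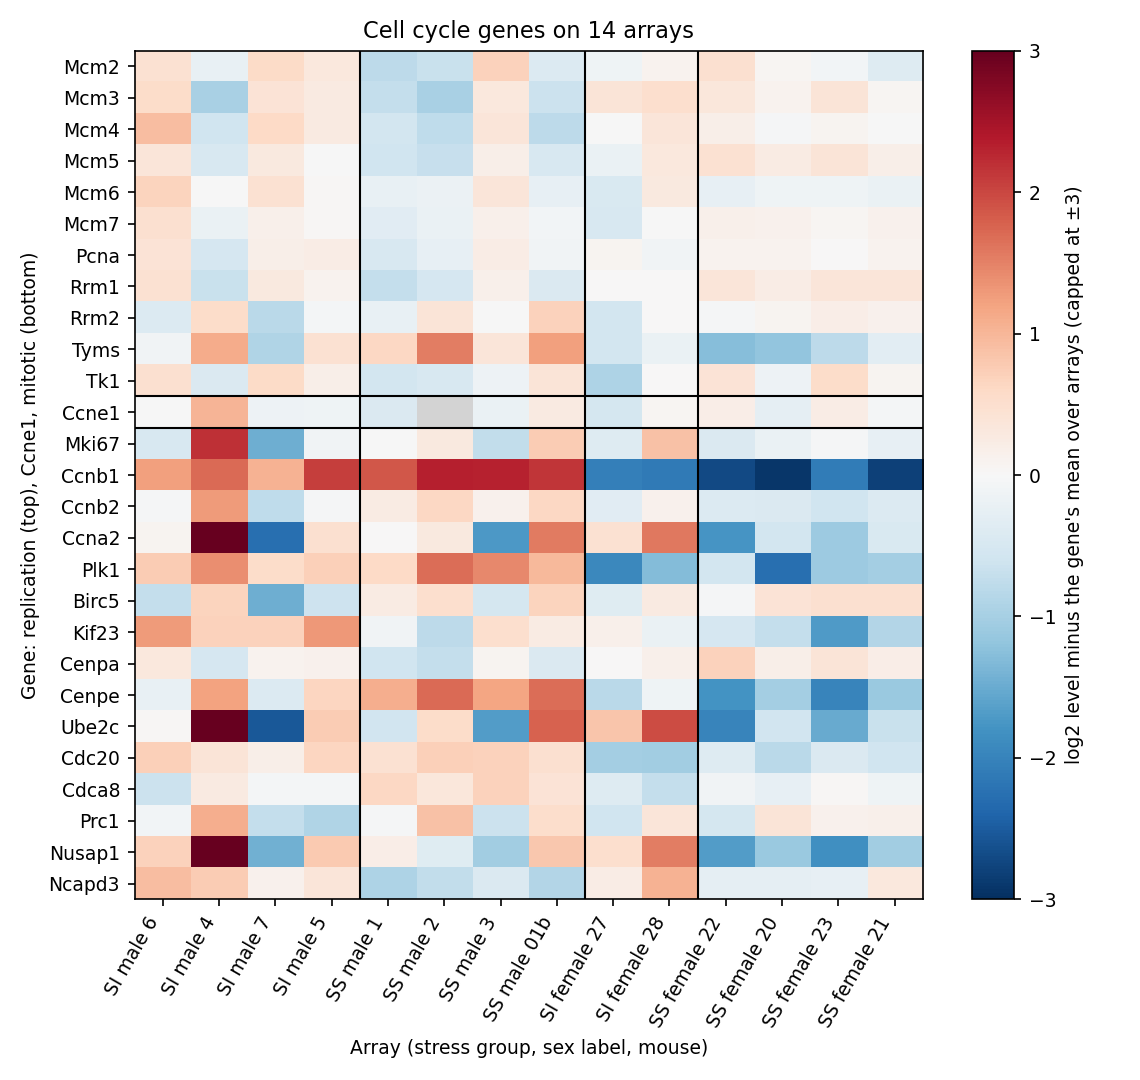
Log2 level of each of the 27 tested genes (vertical axis) on each of the 14 arrays (horizontal axis), minus the gene's mean over arrays, with colours capped at 3 either way and grey for the 1 value left out. Ccnb1, Plk1 and Cenpe are low on the labelled female arrays, and Ube2c, Nusap1 and Ccna2 are highest on SI labelled male 4 and low on SI labelled male 7.

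Over all mice, with slide as a term in limma, 3 of 27 tested genes passed at a Benjamini-Hochberg adjusted p under 0.05, and all 3 were mitotic. Ncapd3, a subunit of condensin II that compacts chromosomes, and Kif23, the kinesin of the central spindle needed for cytokinesis, were lower in SS. Cdca8 (borealin), a subunit of the chromosomal passenger complex, was higher in SS. Among all probes tested 7.98% passed, 7.41% higher and 0.57% lower. The median difference was -0.10 over the 27 genes and -0.04 over all probes. Replication genes gave 0 of 11 passes and a median of -0.13, with 0 at an unadjusted p under 0.05, where 4890 of 24033 probes were.

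Ncapd3 had levels of -3.43, -3.61, -4.01 and -4.24 in the 4 SI labelled males and -4.79, -5.11, -5.25 and -5.29 in the 4 SS labelled males. Among labelled females it lay at -3.32 and -4.14 in SI and at -4.05, -4.60, -4.64 and -4.64 in SS. The groups did not overlap on the first slide, and on the second 1 SS mouse lay above 1 SI mouse. The difference over all mice was -1.07 (SE 0.20, limma adjusted p = 0.00507), with -1.29 (SE 0.25) in labelled males and -0.75 (SE 0.31) in labelled females. In labelled males its probe was detected (well above background) on 1 of 4 SS and 4 of 4 SI arrays. Its call held with each array left out in turn (adjusted p from 0.00532 to 0.023) but was lost under normexp background correction, where 0 of 27 genes passed. A second Ncapd3 probe was well above background on 1 array and was not tested.

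Kif23 had levels of -3.56, -3.58, -4.18 and -4.18 in SI labelled males and -4.36, -4.63, -4.97 and -5.65 in SS labelled males. On the second slide it was at -4.71 and -5.06 in SI and at -5.36, -5.57, -5.74 and -6.55 in SS. Every SS mouse lay below every SI mouse of its slide. The difference over all mice was -0.98 (SE 0.24, limma adjusted p = 0.0197), with -1.03 (SE 0.32) and -0.92 (SE 0.39) on the slides. Kif23 was well above background on 1 of 2 SI and 1 of 4 SS labelled female arrays, so the values on that slide are mostly close to background. Without SI labelled female 27 the adjusted p was 0.0592.

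Cdca8 had levels of -3.54, -3.85, -3.86 and -4.45 in SI labelled males and -3.11, -3.19, -3.40 and -3.46 in SS labelled males. The labelled females were at -4.18 and -4.52 in SI and at -3.76, -3.90, -3.94 and -4.04 in SS. Every SS mouse lay above every SI mouse of its slide. The difference was 0.56 (SE 0.16, limma adjusted p = 0.0457), and the call was lost in 12 of 14 refits with 1 array left out, with adjusted p up to 0.105.

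**Figure D2:**
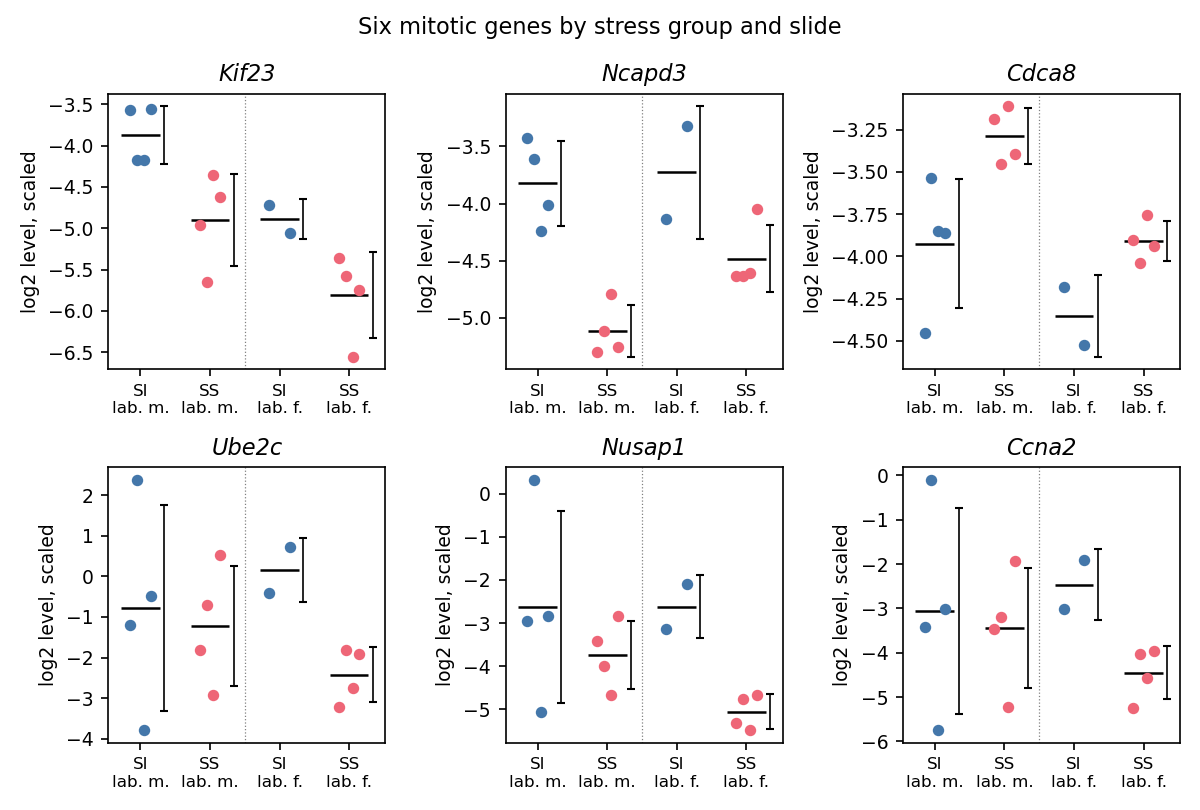
Log2 level of 6 mitotic genes by group (lab. m., labelled male; lab. f., labelled female), with 1 point per mouse, a line at the group mean and a bar of 1 SD. Kif23 was lower and Cdca8 higher in every SS mouse than in every SI mouse of the same slide, while Ube2c, Nusap1 and Ccna2 spread widely within SI labelled males.

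Platelet markers moved with the stress groups on both slides. All 8 of 8 rose in SS over all mice, with a median log2 difference of 1.48. Their summed signal, in multiples of each array's 75th percentile, ranged from 96.25 to 387.8 in SI and from 378 to 665.3 in SS labelled males, and from 121.8 to 157.3 in SI and 415.9 to 513.5 in SS labelled females. The part of platelet RNA in the differences of Cdca8, Kif23 and Ncapd3 was not tested.

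Within labelled males, 0 of 27 genes passed in limma, where 0% of all probes did; 6 of the 27 and 5710 of 24033 probes had an unadjusted p under 0.05. The largest differences were -1.29 for Ncapd3 (adjusted p = 0.0847), 1.11 for Cenpe (SE 0.37, adjusted p = 0.106), -1.10 for Nusap1 (SE 0.83), -1.03 for Kif23, 0.80 for Tyms (SE 0.40) and 0.75 for Birc5 (SE 0.40). Groups did not overlap for 1 gene higher in SS (Cdca8) and 2 lower (Kif23 and Ncapd3), where 8.4% and 1.18% of all probes did not overlap. SI labelled male 4 decided the counts: without it 11 of 27 genes passed, 5 higher and 6 lower, as did 39.3% of all probes. Cenpe then differed by 1.41 (adjusted p = 0.0149), Birc5 by 1.16 (adjusted p = 0.0189), Tyms by 1.12 (adjusted p = 0.0328) and Kif23 by -1.13 (adjusted p = 0.0261).

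None of the 11 replication genes passed in labelled males, and 9 of their differences were below 0, with a median of -0.39 against 0.09 over all probes. Mcm4, a helicase subunit, had levels of -0.42, -0.76, -1.09 and -1.96 in SI and -0.99, -1.90, -2.11 and -2.14 in SS, a difference of -0.72 (SE 0.33, limma adjusted p = 0.202). Mcm2 was at -3.92, -4.06, -4.19 and -4.74 in SI and at -3.81, -4.92, -5.17 and -5.29 in SS (difference -0.57, SE 0.32). Pcna was at 0.18, -0.01, -0.04 and -0.73 in SI and at -0.01, -0.35, -0.46 and -0.70 in SS (difference -0.23, SE 0.22). For these genes SI labelled male 4 was the lowest SI mouse and SS labelled male 3 the highest SS mouse, and the groups overlapped. SI labelled males 5, 6 and 7 and SS labelled male 3 were brighter than the mean array (log2 0.545 to 1.06). The other labelled male arrays were dimmer (-1.06 to -0.122). The mean centred level of the 11 replication genes was 0.162 to 0.387 on the brighter and -0.408 to -0.078 on the dimmer arrays. The summed signal of B cell markers was 20.8 to 28.15 on the brighter and 10.33 to 11.79 on the dimmer arrays. In labelled females the dimmest array, SI labelled female 28, had the highest mean centred replication level (0.123). Its B cell sum (25.65) lay below those of SS labelled females (26.26 to 34.61). The part of array brightness or B cells in the replication levels was not tested. Tyms and Rrm2, the thymidylate synthase and the small subunit of ribonucleotide reductase, had differences above 0 in labelled males, of 0.80 and 0.39 (adjusted p = 0.239 and 0.394).

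Within labelled females, 0 of 27 genes passed in limma, where 4.01% of all probes did (3.19% higher and 0.816% lower). An unadjusted p under 0.05 was seen for 4 of 27 genes and 3806 of 24033 probes. Groups did not overlap for 5 genes higher in SS (Mcm7, Rrm1, Cenpa, Cdc20 and Cdca8) and 7 lower (Mcm3, Ccnb2, Ccna2, Kif23, Cenpe, Ube2c and Nusap1), where 16.6% and 18.2% of all probes did not overlap. The median was 0.09 over replication genes and -0.48 over mitotic genes, against -0.11 over all probes. Pcna was at -0.12, -0.13, -0.13 and -0.22 in SS and at -0.15 and -0.33 in SI (difference 0.09, SE 0.27).

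No gene passed for a different response on the 2 slides (limma, 0 of 27). Among all probes 0.0416% passed, 0.00416% higher and 0.0374% lower. An unadjusted p under 0.05 was seen for 3 of 27 genes and 3025 of 24033 probes. Cenpe, the kinesin that carries chromosomes along the spindle, came nearest, with an adjusted p of 0.239. Its levels were -1.57, -2.14, -2.998 and -3.20 in SI and -1.07, -1.10, -1.60 and -1.70 in SS labelled males. In labelled females they were -2.91 and -3.59 in SI and -3.80, -3.89, -4.56 and -4.77 in SS. SS was thus mostly the higher group on the first slide and wholly the lower group on the second, with differences of 1.11 and -1.002.

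**Figure D3:**
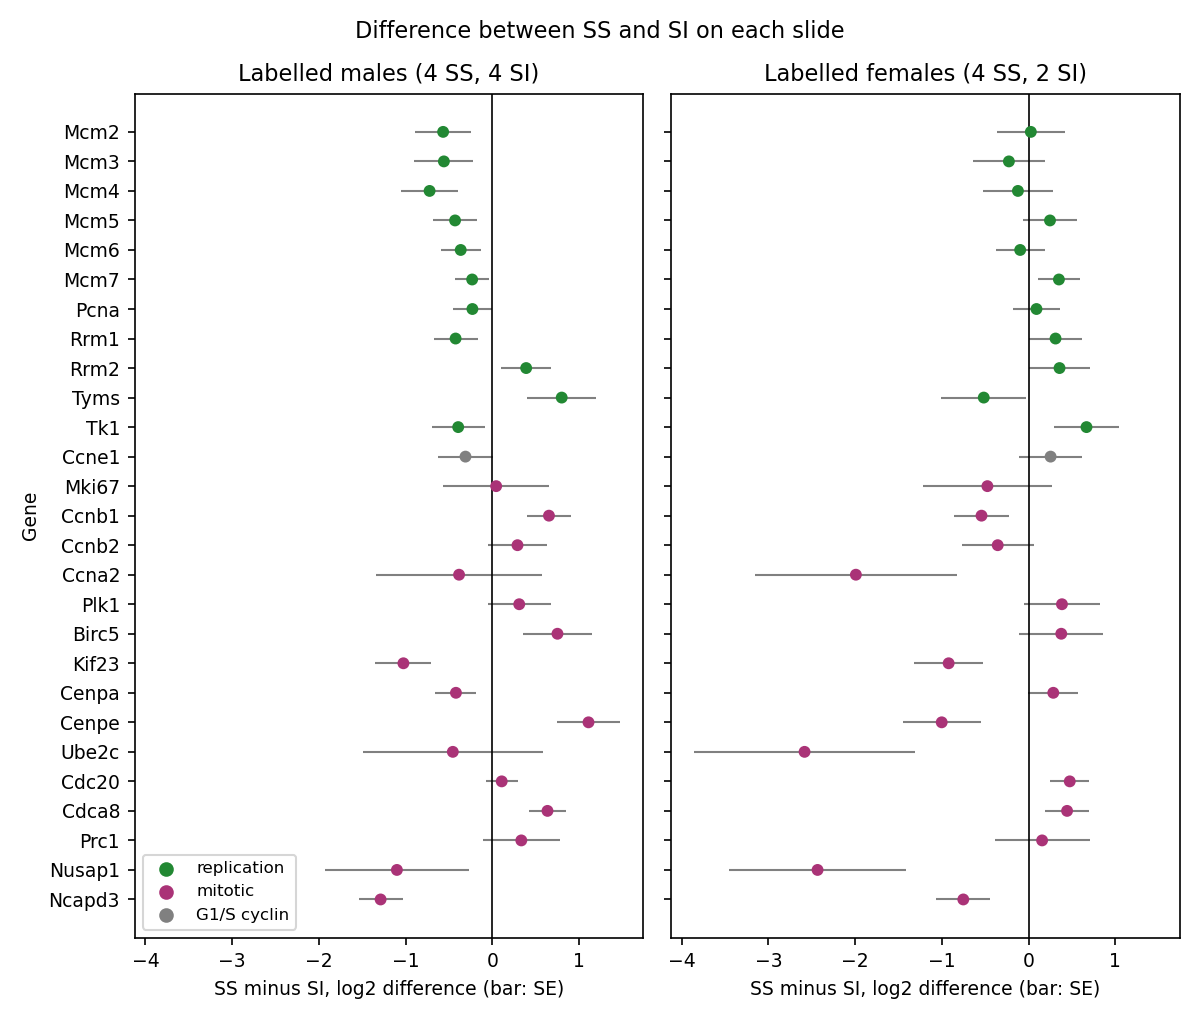
Log2 difference of SS minus SI (horizontal axis, with a bar of 1 SE) for each of the 27 tested genes (vertical axis) in labelled males (left) and labelled females (right). Replication genes lie mostly below 0 on the left, and the widest bars belong to Ube2c, Nusap1 and Ccna2.

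Ube2c, Nusap1, Ccna2 and Mki67 had the widest spread of the 27 genes among SI labelled males, with SDs of 2.54, 2.22, 2.32 and 1.55. Ube2c, the ubiquitin-conjugating enzyme of the anaphase-promoting complex, was at 2.39, -0.47, -1.21 and -3.79 in SI and at 0.52, -0.70, -1.82 and -2.92 in SS labelled males. On the second slide it was at 0.72 and -0.40 in SI and at -1.81, -1.92, -2.76 and -3.21 in SS. The difference was -0.46 (SE 1.04) on the first slide and -2.58 (SE 1.27, limma adjusted p = 0.355) on the second. The highest array was SI labelled male 4 and the lowest SI labelled male 7, both in 1 group.

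Nusap1, a protein that bundles spindle microtubules, was at 0.33, -2.84, -2.94 and -5.07 in SI and at -2.83, -3.43, -3.997 and -4.68 in SS labelled males. In labelled females it was at -2.10 and -3.14 in SI and at -4.67, -4.75, -5.32 and -5.48 in SS, without overlap (difference -2.43, SE 1.02, limma adjusted p = 0.251). With SI labelled male 4 left out of the fit, whose spread all groups share, that adjusted p was 0.0357, and without SI labelled male 7 Nusap1 passed over all mice at -2.14 (adjusted p = 0.0196). SI labelled male 4 and SI labelled male 7 held its highest and lowest levels among SI mice.

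Ccna2, cyclin A2 of S and G2 phase, was at -0.09, -3.01, -3.41 and -5.75 in SI and at -1.92, -3.19, -3.47 and -5.22 in SS labelled males. In labelled females it was at -1.90 and -3.02 in SI and at -3.95, -4.04, -4.57 and -5.25 in SS (difference -1.99, SE 1.17, limma adjusted p = 0.460). Mki67, the proliferation marker that coats mitotic chromosomes, was at 0.93, -1.39, -1.76 and -2.73 in SI and at -0.50, -0.98, -1.29 and -2.001 in SS labelled males. Both genes were highest on SI labelled male 4 and lowest on SI labelled male 7. Mki67 groups overlapped on each slide, at -0.40 and -1.66 in SI and -1.30, -1.48, -1.52 and -1.72 in SS labelled females (difference -0.48, SE 0.75).

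Sums of marker signal were set beside Ube2c by array. The erythroid sum was highest and lowest on the same arrays of each slide as Ube2c. The neutrophil precursor sum shared neither array with Ube2c in labelled males. In labelled females it shared the highest array and not the lowest. The summed signal, in the same multiples, took in the 8 of 9 erythroid markers on the array, 7 of them tested. Hba-a1 and Hbb-bt had the highest mean levels of these (9.13 and 8.41), so the sum is weighted towards them. The sum was highest on SI labelled male 4 (2537) and lowest on SI labelled male 7 (481.2) among labelled males. Among labelled females it was highest on SI labelled female 28 (1968) and lowest on SS labelled female 22 (487.7). Group ranges of the erythroid sum were 481.2 to 2537 in SI and 646 to 1608 in SS labelled males, and 1168 to 1968 in SI and 487.7 to 1007 in SS labelled females. Of the erythroid markers Klf1 was well above background on 3 arrays only. Single markers did not all go the same way between SS and SI: over all mice Epor rose in SS by 1.43 (limma adjusted p = 0.0047) and Tfrc differed by 0.89 (adjusted p = 0.381), while Slc4a1 differed by -1.17 and Alas2 by -0.88, neither of which passed. The sum of the 9 neutrophil precursor markers, 5 of them tested, was 27.71 and 164.5 in SI and from 1.959 to 4.6 in SS labelled females. It was 5.168 on SI labelled male 4, the lowest of SI labelled males (up to 17.68). Single markers split in labelled males: Ltf, Camp, Ngp and Elane differed by 1.48, 1.51, 1.89 and 0.24 and Chil3 by -1.11, none passing. In labelled females all 5 tested markers were below 0. Ltf, Camp and Ngp passed there, at -4.87, -4.63 and -4.85 (limma adjusted p = 0.0111, 0.00931 and 0.00931). These 3 also passed for a different response on the 2 slides (limma adjusted p = 0.0353, 0.0171 and 0.015). Fcnb of that list was detected on 0 arrays. SI labelled males 4 and 7 were also the dimmest and the brightest of all arrays (-1.06 and 1.06), and SI labelled female 28 was the dimmest of its slide (-0.78). The part of red cell precursors, neutrophil precursors or array brightness in the mitotic levels was not tested.

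Mitotic and replication genes were also set against each other on each array. Per array, the mean centred level of the 15 mitotic genes minus that of the 11 replication genes was 1.70, 0.25, -0.13 and -0.73 in SI and 0.84, 0.73, 0.61 and -0.22 in SS labelled males. In labelled females it was 0.04 and -0.13 in SI and -0.56, -0.63, -0.86 and -0.91 in SS. Groups overlapped on the first slide and not on the second, where the difference between means was -0.70, made of -0.60 in mitotic and 0.10 in replication genes. The mitotic part was not shared evenly: Ube2c, Nusap1 and Ccna2 differed most, by -2.58, -2.43 and -1.99, and 6 of the 15 mitotic genes were above 0. On the first slide the difference between means was 0.22, made of -0.03 and -0.25, against a pooled SD of 0.63. It was 0.70 without SI labelled male 4 and -0.11 without SI labelled male 7. No test was made of these means, since the genes share arrays and were chosen with results known.

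Single arrays led the 2 groups of genes differently. SI labelled male 4 was the highest of its slide for 7 of 15 mitotic and 0 of 11 replication genes, and SI labelled male 7 the lowest for 10 of 15 mitotic and 2 of 11 replication genes. SI labelled male 6 was the highest for 7 of 11 replication genes and 3 of 15 mitotic genes.

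**Figure D4:**
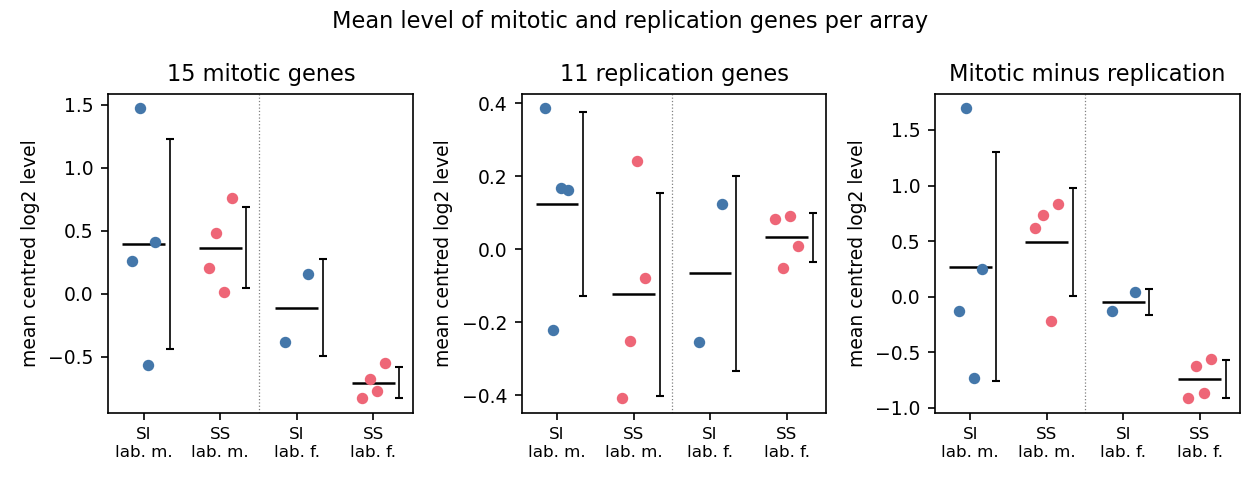
Mean centred log2 level of the mitotic genes (left), of the replication genes (middle) and their difference (right) by group, with 1 point per mouse, a line at the group mean and a bar of 1 SD; lab. m. and lab. f. are the sex labels. The 4 SS labelled females lie between -0.91 and -0.56 in the right panel, below both SI labelled females.

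Between the slides, 7 of 27 genes were lower in labelled females and 0 higher (limma), where 36.8% of all probes passed, 26.2% lower and 10.6% higher. They were the replication gene Tyms and the mitotic genes Ccnb1, Plk1, Kif23, Cenpe, Cdc20 and Cdca8. Tyms and Ccnb1 reached the 6 arrays needed for testing through labelled males only. With only probes detected on all 14 arrays, 3 of 20 genes passed, 0 higher and 3 lower. Among all such probes 1814 were called higher and 1804 lower, against 2539 and 6301 with the filter of 6 arrays. Groups did not overlap for 3 lower (Ccnb1, Plk1 and Cdc20) and 0 higher, where 14.4% and 3.11% of all probes did not overlap. With the 75th percentile taken over all probes, 11 of 27 passed, 6 higher and 5 lower. Of all 24033 probes 11026 then passed, 6090 higher and 4936 lower. The share of higher among all calls went from 28.7% to 55.2%. That scaling moved the median of all probes from -0.07 to 0.31.

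Ccnb1, cyclin B1, was between -3.85 and -2.58 in the 8 labelled males, with a median of -2.94, and between -7.83 and -6.96 in the 6 labelled females, with a median of -7.31. It was well above background on 8 of 8 and 0 of 6 arrays, and was at least 11.4-fold higher in labelled males (limma adjusted p = 5.02e-09). The probe reached the 6 arrays needed for testing through labelled males only, so that p-value is not independent of the filter. The bound sets the mean of labelled males against the lowest signal among probes well above background on each labelled female array, or the probe's own signal where that was higher. The other 2 Ccnb1 probes were well above background on 2 and 1 arrays and gave bounds of 1.44-fold and 1.1-fold.

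Plk1, a kinase of spindle assembly and cytokinesis, was detected on all 8 arrays of labelled males but 1 of 6 of labelled females, with means of -4.49 (SD 0.43) and -6.86 (SD 0.63) and a difference of -2.43 (limma adjusted p = 1.17e-05). Most of the labelled female values are thus near background, and under normexp the difference was -0.077 (adjusted p = 0.83). Cenpe had means of -1.92 (SD 0.80) and -3.92 (SD 0.67), a difference of -1.83 (SE 0.29, limma adjusted p = 1.83e-04). Cdc20, the activator of the anaphase-promoting complex, had means of -2.70 (SD 0.20) and -3.95 (SD 0.29), a difference of -1.33 (SE 0.15, limma adjusted p = 6.4e-06). Cenpe and Cdc20 were well above background on all arrays and, with Ccnb1, kept their calls under the 3 other scalings and normexp. Tyms was well above background on 7 of 8 and 0 of 6 arrays, so it too was tested through labelled males only. It was at least 2.24-fold higher in labelled males (limma adjusted p = 0.0102, not independent of the filter). That call was lost under quantile normalization (-0.48, adjusted p = 0.0957) and without SI labelled female 27 (adjusted p = 0.0517), and the direction turned under normexp (0.041). Kif23 differed by -0.96 and Cdca8 by -0.53 (limma adjusted p = 0.00906 and 0.0242), and both lost the call under the all-probe percentile (adjusted p = 0.113 and 0.581).

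**Figure D5:**
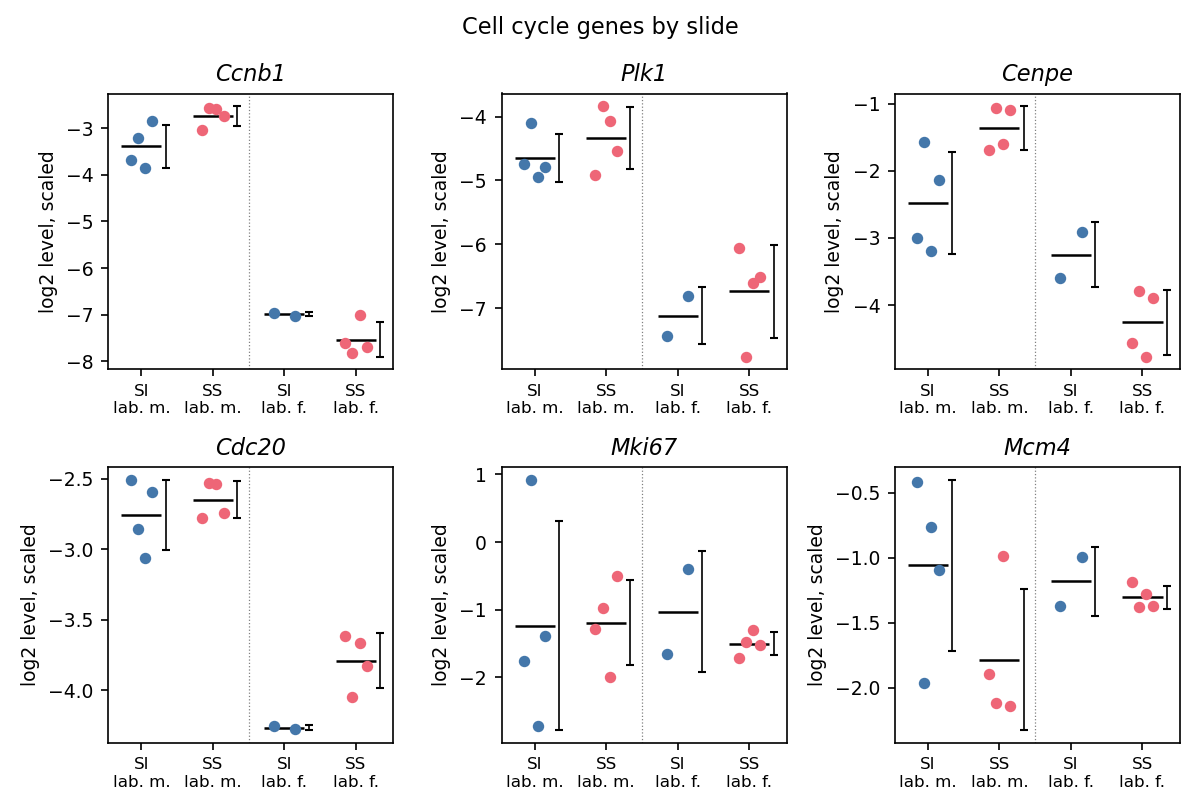
Log2 level of 5 mitotic genes and the helicase gene Mcm4 by group, with 1 point per mouse, a line at the group mean and a bar of 1 SD; lab. m. and lab. f. are the sex labels. Ccnb1, Plk1 and Cdc20 are lower on every labelled female array than on every labelled male array, and Mki67 and Mcm4 overlap.

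Of 4 genes with 2 tested probes, 3 gave the same signs for SS minus SI on both slides. The second Ube2c probe differed by -0.80 and -2.74 on the slides, beside -0.46 and -2.58, and the second Birc5 probe by 1.03 and 0.49, beside 0.75 and 0.38. The second Mki67 probe differed by 0.13 and -0.26, beside 0.05 and -0.48. The 2 probes of Ccne1 (cyclin E1) disagreed. In labelled males SS minus SI was -0.31 for the brighter and 0.93 for the dimmer probe, neither of which passed. Its brighter probe differed by -0.13 between labelled females and males, and its dimmer probe, not well above background on any labelled female array, was at least 2.56-fold higher in labelled males (limma adjusted p = 3.62e-05). The dimmer probe was tested through labelled males only, so that p-value is not independent of the filter. On SS labelled male 2 the only spot of the brighter Ccne1 probe was marked an outlier and left out, so that group has 3 values.

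Of 72 other tested cell cycle genes, 6 (8.33%) passed in SS against SI over all mice, a share near the 7.98% of all probes. These were 1 of 19 tested other replication genes (Dut), 2 of 17 other mitotic genes (Kif22 and Incenp), 0 of 9 condensin and cohesin genes, 2 of 16 G1 regulators (Ccnd1 and Ccnd3) and 1 of 11 inhibitors (Cdkn2b), and all of them were higher in SS. Dut, which removes dUTP, was at -1.53, -1.55, -1.56 and -2.85 in SI and at -0.37, -0.84, -0.88 and -0.90 in SS labelled males. On the second slide it lay at -2.36 and -2.49 in SI and at -0.47, -0.75, -0.90 and -0.95 in SS. It did not overlap on either slide and differed by 1.34 (SE 0.23, limma adjusted p = 0.0047). Tyms, Rrm1 and Rrm2 of the same supply of nucleotides did not pass.

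Kif22, a chromosome-arm kinesin, differed by 1.05 (SE 0.17, limma adjusted p = 0.0047), and Incenp, the scaffold of the complex that also holds Cdca8, by 0.50 (SE 0.14, adjusted p = 0.0448). Cyclin D1 (Ccnd1) differed by 1.32 (SE 0.24, limma adjusted p = 0.00483) and cyclin D3 (Ccnd3) by 0.92 (SE 0.19, adjusted p = 0.0064). Cdkn2b, the inhibitor of the cyclin D kinases, was well above background on 8 of 8 SS and 0 of 6 SI arrays and was at least 2.85-fold higher in SS (limma adjusted p = 0.0047). It was tested through SS arrays only, so its p-values here are not independent of the filter. Within labelled females 3 of the 72 (4.17%) passed, beside 4.01% of all probes, namely Dut, Kif22 and Cdkn2b (limma adjusted p = 0.0283, 0.0321 and 0.0116). The 8 platelet markers rose in the same mice, and their part in these differences was not tested. Between the slides Hmmr and Uhrf1 were lower in labelled females, by -4.63 and -2.60 on the log2 scale. Ccnf was detected on 8 of 8 arrays of labelled males and 0 of 6 of labelled females, and was at least 4.05-fold higher in labelled males (limma adjusted p = 9.61e-06). Ccnf was tested through labelled males only, so that p-value is not independent of the filter.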

How the data were processed

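RNA of blood cells from 14 mice was hybridised to 1-colour Cy3 Agilent arrays, 1 per mouse. The deposited scanner files hold background-subtracted fluorescence intensity from Agilent Feature Extraction, version 10.7.3.1 per the file headers and 9.1 per the submitters' processing notes; other deposited columns are flags. The authors also deposited a table of log2 values (column medians 7.208 to 7.735; normalization and centring not given in the sources used here), used as an alternative.

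Control and outlier spots were left out, spots of a probe averaged as log2, and the 75th percentile over the 14501 probes found on all 14 arrays subtracted per array. Probes detected on at least 6 arrays (24033 of 55681) were tested with limma 3.58.1 in R 4.3.3 (data.table version 1.17.8), two-sided, Benjamini-Hochberg over all tested probes at 0.05. 1 fit had 4 group means; the comparison over all mice had slide and stress as terms. The code was tested on simulated data. RefSeq symbols matched 26425 of 31063 identifiers, and a gene is its tested probe with the highest mean level. P-values measure the spread between single mice, and the number of arrays limits the precision. Full values are given for members that passed, the 6 largest differences on each slide, and Mki67, Top2a, Cdk1, Ccnb1, Pcna and Mcm2; of other cell cycle genes, those that passed. Mcm4, Rrm2, Mki67's second probe and Hmmr, Ccnf and Uhrf1 were added after their values were seen. The members and lists were chosen with earlier results of these data known. Scaling, background correction, filters, array weights, the deposited values and each array left out were tried as alternatives.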

Additional observations from a re-analysis of the deposited data

Results flagged for a closer look

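Of 80 sets of 4 arrays of a gene in a group, 7 had 1 array set apart from the other 3 by Dixon's ratio, where chance gives about 1 in 20. Mcm6 was at -1.18 in SS labelled male 3, with the nearest at -1.73. Pcna was at -0.22 and Ccnb2 at -3.93 in SS labelled female 23, with the nearest at -0.13 and -3.76. Rrm1 was at -2.86 in SS labelled female 20 (nearest -2.73), Birc5 at -1.54 in SS labelled female 22 (nearest -1.11) and Ncapd3 at -4.05 in SS labelled female 21 (nearest -4.60). Ccne1 was at -2.47 in SI labelled male 4, with the nearest at -3.52.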

How the results depend on the processing

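Over all mice the 3 calls became 1 under quantile normalization, 0 under normexp, 1 without a filter on dim probes, 1 of 20 genes with only probes detected on all 14 arrays, 1 of 25 in the deposited table and 13 (4 higher, 9 lower) with limma array weights. Among all probes the 1919 calls became 1817, 1246, 1126, 1913, 1489 and 10669, in the same order. The probes tested were 24033, except 55681 without the filter, 14501 with only probes detected on all 14 arrays and 20439 in the deposited table. The 0 calls in labelled males became 1 in the deposited table (Ncapd3) and 19 with array weights, and the 0 of the difference between slides became 2 with array weights. Among all probes the calls in labelled males went from 0 to 168 and 14044. Those for the difference between slides went from 10 to 2397 with array weights. The 7 calls between slides became 11 under the all-probe percentile, 4 under normexp and 3 with only probes detected on all 14 arrays. Among all probes the 8840 calls became 11026, 3385 and 3618. Tyms between the slides turned from -1.17 to 0.041 under normexp (adjusted p = 0.926). Normexp took the median spot and background signals in place of the processed signal, with an offset of 50. Such an offset by construction shrinks differences of dim probes. The part of the offset or of the input in these changes was not tested, nor was the cause of the other changes. With each array left out, the counts ranged from 2 to 4 over all mice, 0 to 11 in labelled males, 0 to 1 in labelled females and for the difference between slides, and 5 to 9 between slides. The mitotic minus replication difference then ranged from -0.114 to 0.695 in labelled males and from -0.777 to -0.612 in labelled females. Under the other settings run it stayed within 1 pooled SD (0.63) of its value, a band nearly as large as the difference of -0.70 in labelled females. Scaling by 1 constant per array cancels in this difference, array weights do not enter it, and the outlier spots kept touch neither list. Those settings could therefore not change it. SI labelled male 4 accounts for the highest counts within labelled males (11), within labelled females (1) and for the difference between slides (1). Without that array 39.3%, 8% and 2.93% of all probes passed in these comparisons. Median replication differences in labelled males stayed below 0 under every scaling run and normexp (-0.57 to -0.16), while the mitotic median turned from 0.11 to -0.07 under the all-probe percentile and the replication median in labelled females from 0.09 to -0.08 under normexp. Keeping outlier spots of probes with no other spot, chosen after seeing the data, changed no count of members. Of 1352 differences of single genes set beside the reported ones, 37 lost the threshold and 26 gained it. The sign changed in 57, of which 56 passed the threshold neither before nor after and 1 was the call of Tyms, and 32 of the 57 came from leaving out 1 array. Dim probes limit 13 members that could not be tested. No paired analysis was possible because the groups share no mouse numbers.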
